A study of Homo sapiens with 12 samples.

Results

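Expression of 10 genes of lipid metabolism was followed across epithelial and stromal cells of the human endometrium exposed to AG-205. They were chosen with earlier results of these data known and taken by symbol from the roles they hold. ACSL1, ACSL3 and ACSL4 activate fatty acids, DBI binds the resulting acyl-CoA, and LPIN1 and LPIN2 are phosphatidate phosphatases. PCYT1A and CHKA serve phosphatidylcholine synthesis, and PCYT2 and ETNK1 serve phosphatidylethanolamine synthesis. All 10 were found among the 58735 genes of the count table, and all 10 passed the filter on low counts in both lines, which left 14122 genes to test for the HEC-1A comparison and 13753 for that in T-HESC. The epithelial cells were HEC-1A (HEC1A in the labels), a line from an endometrial adenocarcinoma. The stromal cells were T-HESC (THESC in the labels), fibroblast-like cells immortalised with telomerase. Each line received either 15 µM AG-205, a small molecule sold as a ligand of the membrane protein PGRMC1, or the vehicle DMSO for 32 h, and each of the 4 groups had 3 libraries. With 1 line per cell type, the cell type cannot be told apart from the line and its culture.

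A long-chain fatty acid enters lipid synthesis only after an acyl-CoA synthetase has joined it to coenzyme A, and acyl-CoA binding protein, encoded by DBI, holds the product in the cytosol. Acyl chains are then placed on glycerol-3-phosphate to give phosphatidate, and lipins remove its phosphate to give diacylglycerol. Diacylglycerol accepts phosphocholine from CDP-choline or phosphoethanolamine from CDP-ethanolamine, and the cytidylyl transferases encoded by PCYT1A and PCYT2 make these activated head groups after the kinases encoded by CHKA and ETNK1 have acted on choline and ethanolamine. Several of these genes are textbook targets of SREBP transcription factors, which cells activate when membrane sterol is short.

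Total counts ran from 7168542 to 15178276 per library. Levels are given as CPM, in which the counts of a library are put on a scale of 1000000 after TMM scaling over all 12 libraries, and levels of different genes are compared only as CPM per kb of exon. The 10 genes held between 126 counts (CHKA) and 3552 counts (DBI) in a library. Markers of the labelled cell types were checked first. The 7 epithelial markers summed to between 1406 and 1557 CPM in HEC-1A with DMSO, to between 2041 and 2116 CPM in HEC-1A with AG-205 and to between 225 and 371 CPM in T-HESC, where CDH1 and ESRP1 had at most 3 counts in each library and 4 of the 7 markers (KRT8, KRT18, KRT19 and CLDN4) stayed above 1 CPM. The 8 stromal markers summed to between 8.53 and 14.4 CPM in HEC-1A and to between 12815 and 27030 CPM in T-HESC. T-HESC libraries were far less alike than HEC-1A libraries, with a biological coefficient of variation of 33.6% against 10.1%. One T-HESC library stood apart: AG-205 replicate 1 lay at 89.9 on the first principal component of that line, and the other T-HESC libraries lay between -36.8 and 2.63.

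In HEC-1A, 5 of the 10 genes were higher with AG-205 past both thresholds used here, an adjusted p under 0.05 in edgeR's quasi-likelihood test and a log2 fold change beyond 1. These were ACSL1, LPIN1, PCYT2, DBI and ACSL4, and 0 of the 10 were called lower. Among all genes tested in this line 2.78% were called, 2.58% higher and 0.205% lower. By adjusted p alone ACSL3 was added, giving 6 of 10 higher and 0 lower, beside 7.35% and 4.28% of all genes. The log2 fold change lay above 0 for 9 of the 10 genes and for 50.9% of all genes. The median log2 fold change of the 10 genes was 0.73, beside 0.01 for all genes tested. The libraries of the treated group lay entirely above those of the vehicle group for 7 of the 10 genes and entirely below for 1, LPIN2, where 14.2% and 18.2% of all genes did so. This was read on the scale of all 12 libraries, and 9 of the 10 genes kept their place when this line was scaled alone. Because the 10 genes were chosen with earlier results of these data known, their shares beside those of all genes only describe them, in both lines. The epithelial marker sum was also higher with AG-205 in this line, with KRT19 (1.09) and CLDN4 (1.22) called and KRT8 (0.48) passing by adjusted p alone, while EPCAM, CDH1, KRT18 and ESRP1 did not pass. In T-HESC, KRT19 changed by 1.05, KRT18 by -1.47, KRT8 by -0.33 and CLDN4 by 0.21 on the log2 scale. None passed by adjusted p, though the treated libraries lay entirely above for KRT19 and entirely below for KRT18. EPCAM, CDH1 and ESRP1 were not tested there. The part of the HEC-1A shift in the values of the 10 genes was not tested. In bulk RNA fewer cells of a type and less RNA per cell cannot be told apart.

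For T-HESC, 0 of the 10 genes were called by the quasi-likelihood test of edgeR, which called 0.0800% of all genes tested in that line. At an unadjusted p under 0.05, 4 of the 10 (ACSL3, DBI, LPIN1 and PCYT2) were higher, where 3.58% of all genes were. DESeq2 called 2 and limma with library quality weights called 3, and the shares of all genes called by these methods are not given here. The log2 fold change lay above 0 for 9 of the 10 and for 52.4% of all genes, with a median of 0.56 beside 0.02 for all genes tested. The treated libraries lay entirely above the vehicle libraries for 6 of the 10 genes and entirely below for 0, where 6.23% and 4.70% of all genes did so. Without AG-205 replicate 1 the test called LPIN1 and PCYT2, so the count became 2, and the share of all genes called then is not given here.

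**Figure D1:**
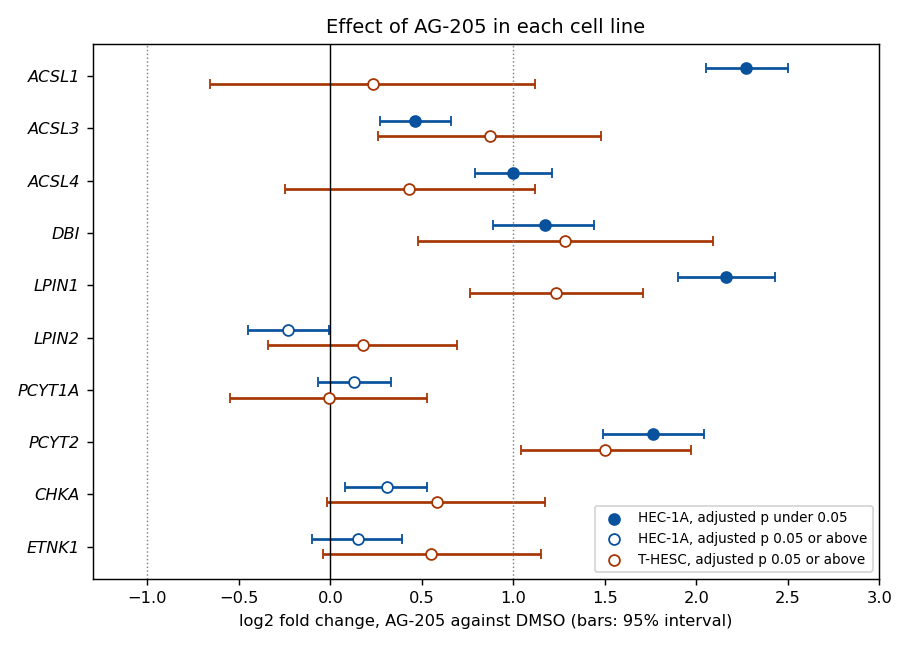
Log2 fold change of AG-205 against DMSO (x axis) for the 10 genes (y axis) in HEC-1A and T-HESC, with bars for the 95% interval from edgeR's quasi-likelihood test, 3 libraries per group, and dotted lines at the fold limit of 1. Filled points have an adjusted p under 0.05, which holds for 6 genes in HEC-1A. T-HESC has 0 filled points and wider intervals.

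The effect itself was compared between the lines in a fit of all 12 libraries. No gene of the 10 differed past the thresholds in edgeR's quasi-likelihood test, where 0.174% of all 16132 genes did. At an unadjusted p under 0.05, 2 of the 10 differed (ACSL1 and LPIN1), beside 6.35% of all genes. DESeq2 called 1, ACSL1, and the share of all genes it called is not given here. Each line's effect was also read from this same fit of 12 libraries, without the shares of all genes called. There 3 genes were called in HEC-1A (ACSL1, LPIN1 and PCYT2) and 3 in T-HESC (DBI, LPIN1 and PCYT2). This fit shares an estimate of the spread between lines whose biological coefficients of variation were 10.1% (HEC-1A) and 33.6% (T-HESC). The part of that sharing in its counts was not tested. In edgeR's test no difference was called for the 10 genes, so the separate counts of 5 and 0 do not show that the lines differ. The wide intervals in T-HESC do not show that the lines acted alike.

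ACSL1 encodes the long-chain acyl-CoA synthetase of the outer mitochondrial membrane and endoplasmic reticulum, and it had the largest log2 fold change of the 10 genes in HEC-1A. The 3 HEC-1A libraries with AG-205 held 158, 182 and 148 CPM of ACSL1, and the 3 with DMSO held 35.6, 35.5 and 32.5 CPM. Treated and vehicle libraries were far apart, with no intermediate value. This was a log2 fold change of 2.27 (SE 0.104, 95% interval 2.05 to 2.50), or 4.84-fold, with an adjusted p of 4.16e-08 in edgeR's quasi-likelihood test, and ACSL1 was number 11 of all tested genes by p. In T-HESC the ACSL1 level was 18.4, 55.5 and 40.4 CPM with AG-205 and 24.4, 29.6 and 42.2 CPM with DMSO. Here the groups overlapped: AG-205 replicate 1 was the lowest of the 6 libraries and AG-205 replicate 2 the highest. The T-HESC log2 fold change was 0.23 (SE 0.385, 95% interval -0.66 to 1.12) with an adjusted p of 0.993, and leaving out AG-205 replicate 1 gave 0.54, while leaving out AG-205 replicate 2 turned it to -0.16.

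The difference of the ACSL1 effect, T-HESC minus HEC-1A, was -2.02 on the log2 scale (SE 0.435, 95% interval -2.97 to -1.08), with an adjusted p of 0.141 in edgeR's quasi-likelihood test. It passed both thresholds without T-HESC AG-205 replicate 1, at -1.70 with an adjusted p of 0.0192. Over all settings tried the adjusted p of this difference ran from 3.15e-06 to 0.472. With the vehicle ACSL1 was at 34.5 ± 1.77 CPM in HEC-1A and at 32.1 ± 9.13 CPM in T-HESC (SD, n = 3 each). The log2 difference of -0.10 (SE 0.306, adjusted p 0.792 in the same test) did not pass, which does not show that the levels were alike.

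ACSL4 encodes the synthetase that prefers arachidonate and other polyunsaturated fatty acids. In HEC-1A its libraries held 70.4, 81.3 and 78.7 CPM with AG-205 and 41.0, 39.3 and 37.5 CPM with DMSO. The groups were apart, and the log2 fold change of 1.00 (SE 0.0964, adjusted p 2.81e-05 in edgeR's quasi-likelihood test) sat on the fold limit. ACSL4 lost its call on that limit without AG-205 replicate 2, AG-205 replicate 3 or DMSO replicate 3, and 4 genes were then called. In T-HESC ACSL4 was at 152, 213 and 124 CPM with AG-205 and at 95.0, 106 and 159.6 CPM with DMSO. The groups overlapped here, and the T-HESC log2 fold change was 0.43 (SE 0.296, adjusted p 0.993). With the vehicle, the level of ACSL4 was 3.07-fold higher in T-HESC than in HEC-1A, a log2 difference of 1.62 (SE 0.229, adjusted p 5.30e-05).

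ACSL3 encodes the synthetase found on the endoplasmic reticulum and on lipid droplets. In HEC-1A its libraries held 86.4, 83.1 and 93.2 CPM with AG-205 and 65.7, 65.1 and 64.5 CPM with DMSO. The groups did not overlap, and the spread of the vehicle libraries was narrow. The log2 fold change of ACSL3 was 0.46 (SE 0.0896, adjusted p 0.00580 in edgeR's quasi-likelihood test), under the fold limit, and the adjusted p was 0.0510 without DMSO replicate 3, in a range of 1.68e-04 to 0.521 over all settings. In T-HESC the libraries held 156, 228 and 137 CPM with AG-205 and 77.7, 95.6 and 111 CPM with DMSO. Here too the treated libraries all lay above the vehicle libraries, with an estimate of 0.87 on the log2 scale (SE 0.265, 95% interval 0.26 to 1.48) that did not pass (adjusted p 0.558).

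The 3 synthetases were also set against each other within each library, per kb of exon, which does not depend on the scaling between libraries. In HEC-1A the share of ACSL1 in their sum was 38.6 ± 0.755% with DMSO and 64.4 ± 2.81% with AG-205 (SD, n = 3 each), and the lowest treated library, at 61.3%, was above the highest vehicle library, at 39.2%. The shares of ACSL3 and ACSL4 were smaller with AG-205, from 32.8% to 15.7% for ACSL3 and from 28.6% to 19.9% for ACSL4 (means of 3 libraries), although both had higher levels. In T-HESC the largest share was that of ACSL4, with means of 50.9% with DMSO and 47.9% with AG-205, and the share of ACSL1 was 20.8 ± 0.696% and 16.9 ± 6.34% (SD, n = 3 each). The lower treated mean of ACSL1 came from AG-205 replicate 1, at 9.81%, and the mean of the other treated libraries, at 18.7% and 22.1%, was 20.4%.

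**Figure D2:**
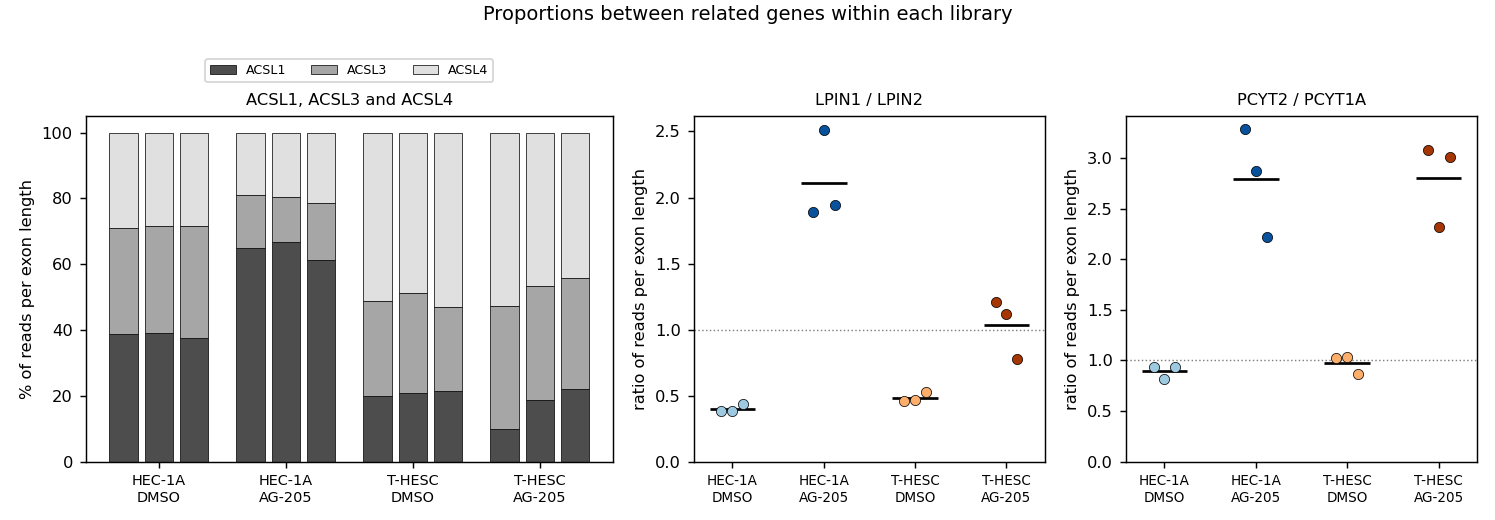
Left, share of ACSL1, ACSL3 and ACSL4 in their summed reads per exon length (y axis, %) in each of the 12 libraries. Middle and right, ratio of LPIN1 to LPIN2 and of PCYT2 to PCYT1A per exon length in each library (points) with the group mean (line, n = 3). The ACSL1 share is between 61.3% and 66.8% in HEC-1A with AG-205 and between 9.81% and 39.2% in the other libraries.

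DBI, which encodes acyl-CoA binding protein, had the highest level per exon length of the 10 genes in each group, with means between 27.1 and 106 CPM per kb. In HEC-1A the DBI level was 238, 241 and 315 CPM with AG-205 and 136, 113 and 114 CPM with DMSO. The groups did not overlap, and DBI rose 2.25-fold (log2 fold change 1.17, SE 0.127, adjusted p 8.32e-05 in edgeR's quasi-likelihood test). This call was lost in the fit of all 12 libraries, with an adjusted p of 0.0842, the highest over all settings. DBI in T-HESC stood at 245, 133 and 110.4 CPM with AG-205 and at 61.9, 72.4 and 68.9 CPM with DMSO. All 3 treated libraries were above the vehicle libraries, and replicate 1 was the highest by far. The log2 fold change of 1.28 (SE 0.349, 95% interval 0.48 to 2.09) had an adjusted p of 0.479, and it was 0.80 without AG-205 replicate 1. The effects in the lines differed by 0.12 on the log2 scale (SE 0.379, 95% interval -0.70 to 0.95), and with the vehicle the level of DBI was lower in T-HESC than in HEC-1A by a log2 difference of -0.83 (SE 0.270, adjusted p 0.0181).

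LPIN1 and LPIN2 encode paralogous lipins that carry out the same reaction, and their values in HEC-1A went different ways. LPIN1 was at 89.9, 108 and 78.9 CPM in the HEC-1A libraries with AG-205 and at 20.3, 21.1 and 22.1 CPM in those with DMSO. The treated libraries all lay well above, and LPIN1 rose 4.48-fold (log2 fold change 2.16, SE 0.121, 95% interval 1.90 to 2.43, adjusted p 1.53e-07 in edgeR's quasi-likelihood test). LPIN2 in the same libraries was at 29.5, 26.8 and 25.3 CPM with AG-205 and at 33.1, 34.0 and 31.4 CPM with DMSO. The treated libraries lay below the vehicle libraries by a small step, and the log2 fold change of -0.23 (SE 0.102, 95% interval -0.45 to -0.01) did not pass (adjusted p 0.177).

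In T-HESC the LPIN1 level was 115, 149.9 and 121 CPM with AG-205 and 53.2, 51.8 and 58.2 CPM with DMSO. The groups were again apart, and here the outlying replicate 1 lay close to replicate 3. The log2 fold change of LPIN1 was 1.23 (SE 0.204, 95% interval 0.76 to 1.71) with an adjusted p of 0.125 in edgeR's quasi-likelihood test. Without AG-205 replicate 1 it was 1.27 with an adjusted p of 0.0283, and over all settings this p ran from 3.16e-04 to 1.00. LPIN2 was at 59.0, 82.9 and 96.9 CPM with AG-205 and at 71.8, 68.9 and 68.5 CPM with DMSO in T-HESC. These groups overlapped, and the estimate was 0.18 on the log2 scale (SE 0.222, adjusted p 0.993).

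The LPIN1 effect was smaller in T-HESC by a log2 difference of -0.91 (SE 0.221, 95% interval -1.39 to -0.43), and this did not pass after adjustment (0.236 in edgeR's quasi-likelihood test). With the vehicle LPIN1 and LPIN2 were at higher levels in T-HESC than in HEC-1A, LPIN1 2.58-fold (adjusted p 9.37e-06) and LPIN2 2.14-fold (adjusted p 9.21e-05). The ratio of LPIN1 to LPIN2 per exon length was 0.402 ± 0.0319 with DMSO and 2.11 ± 0.341 with AG-205 in HEC-1A (SD, n = 3 each). In T-HESC it was 0.485 ± 0.0367 with DMSO and 1.04 ± 0.231 with AG-205. Per exon length LPIN2 was the higher of this pair in all 6 vehicle libraries, and LPIN1 was in all 3 treated HEC-1A libraries. The treated T-HESC libraries lay on both sides of 1, from 0.776 to 1.21. The lengths are those of all annotated exons of a gene merged, 11861 bases for LPIN1 and 7375 for LPIN2. The side of 1 on which a ratio falls depends on these lengths. The remaining lipin gene, LPIN3, was at 5.34 ± 0.148 CPM per kb in HEC-1A with DMSO, above LPIN2 at 4.45 ± 0.178, and at 4.99 ± 0.770 CPM per kb in T-HESC with DMSO, below LPIN2 at 9.46 ± 0.239 (SD, n = 3 each). LPIN3 did not pass in either line (adjusted p 0.359 and 0.993), and in T-HESC AG-205 replicate 1 it had 17 counts, beside 251 and 284 in the other treated libraries.

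PCYT2 encodes the ethanolamine-phosphate cytidylyl transferase, which makes CDP-ethanolamine, and it had the smallest p of the 10 genes in T-HESC. In HEC-1A PCYT2 was at 144, 144 and 104 CPM with AG-205 and at 40.6, 36.4 and 41.5 CPM with DMSO. Treated replicate 3 was lower than the other treated libraries and still far above the vehicle group. The rise was 3.40-fold (log2 fold change 1.76, SE 0.128, 95% interval 1.49 to 2.04, adjusted p 2.05e-06 in edgeR's quasi-likelihood test). PCYT2 in T-HESC was at 167, 198 and 209 CPM with AG-205 and at 63.1, 66.3 and 71.9 CPM with DMSO. The groups were far apart in this line as well, and replicate 1 was the lowest treated library.

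The T-HESC log2 fold change of PCYT2 was 1.50 (SE 0.202, 95% interval 1.04 to 1.97), or 2.84-fold, with an adjusted p of 0.0621 in edgeR's quasi-likelihood test. Without AG-205 replicate 1 it was 1.56 with an adjusted p of 0.00983, and over all settings this p ran from 2.51e-07 to 0.719. The effects in the lines differed by -0.24 on the log2 scale (SE 0.225, 95% interval -0.73 to 0.25). Of the exon length of PCYT2, 28.3% overlaps NPB on the opposite strand, and whether the counting used strand is not given in the sources used here. If it did not, reads of PCYT2 and NPB cannot be told apart over that stretch.

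ETNK1 encodes the ethanolamine kinase that acts 1 step before PCYT2. In HEC-1A it was at 56.4, 72.1 and 70.9 CPM with AG-205 and at 56.8, 61.8 and 66.0 CPM with DMSO. The groups overlapped, and the log2 fold change was 0.15 (SE 0.113, adjusted p 0.449 in edgeR's quasi-likelihood test). The T-HESC libraries held 108, 96.2 and 64.7 CPM with AG-205 and 59.9, 62.1 and 62.5 CPM with DMSO. All treated libraries lay above, replicate 3 by little, and the log2 fold change of 0.55 (SE 0.258, 95% interval -0.04 to 1.15) did not pass (adjusted p 0.973). In HEC-1A the 95% interval of ETNK1 ran from -0.10 to 0.39 on the log2 scale, beside 1.49 to 2.04 for PCYT2 of the same branch.

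PCYT1A encodes the choline-phosphate cytidylyl transferase, the regulated step of phosphatidylcholine synthesis. Its groups overlapped in both lines on the scale of all 12 libraries. The HEC-1A libraries held 50.7, 58.2 and 54.2 CPM with AG-205 and 50.3, 51.4 and 51.2 CPM with DMSO. The treated libraries reached from the vehicle level to slightly above it, and the log2 fold change of 0.13 (SE 0.0925, adjusted p 0.412 in edgeR's quasi-likelihood test) had a 95% interval of -0.07 to 0.33. In T-HESC PCYT1A was at 62.7, 99.0 and 80.8 CPM with AG-205 and at 72.0, 74.2 and 96.4 CPM with DMSO, again overlapping, with a log2 fold change of -0.01 (95% interval -0.55 to 0.53).

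The ratio of PCYT2 to PCYT1A per exon length rested on these values. It was 0.899 ± 0.0681 with DMSO and 2.79 ± 0.541 with AG-205 in HEC-1A, and 0.972 ± 0.0929 and 2.8 ± 0.416 in T-HESC (SD, n = 3 each). In both lines the lowest treated library (2.22 in HEC-1A, 2.32 in T-HESC) was above the highest vehicle library (0.94 and 1.03). These ratios compare libraries within a line and carry no test.

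CHKA encodes choline kinase alpha and had the lowest counts of the 10 genes in T-HESC. In HEC-1A it was at 30.6, 34.8 and 34.5 CPM with AG-205 and at 29.3, 27.5 and 25.9 CPM with DMSO. The groups were apart by a narrow gap, and the log2 fold change was 0.31 (SE 0.105, 95% interval 0.08 to 0.53) with an adjusted p of 0.0817 in edgeR's quasi-likelihood test. The T-HESC libraries held 13.1, 22.3 and 17.8 CPM with AG-205 and 10.4, 12.4 and 12.6 CPM with DMSO. All treated libraries lay above the vehicle libraries, replicate 1 by little, and the log2 fold change of 0.58 (SE 0.256, 95% interval -0.02 to 1.17) did not pass (adjusted p 0.948). An antisense lncRNA overlaps 16.3% of the exon length of CHKA. With the vehicle the level of CHKA was 2.33-fold lower in T-HESC than in HEC-1A, a log2 difference of -1.22 (SE 0.186, adjusted p 9.85e-05).

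**Figure D3:**
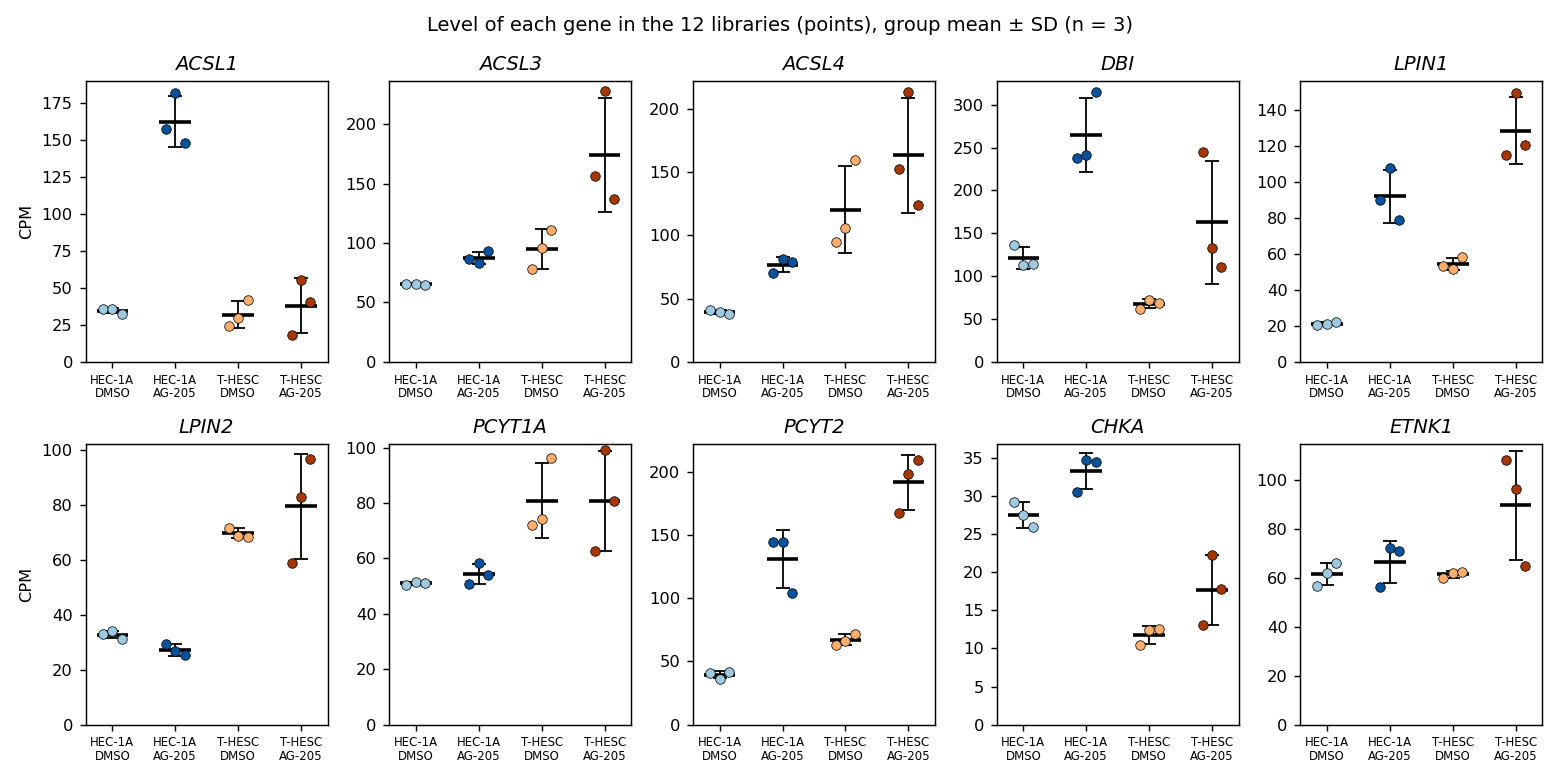
Level of each of the 10 genes (y axis, CPM from 0) in the 12 libraries (points), with the group mean and SD (n = 3). For LPIN1 and PCYT2 the 4 groups are in the same order with no overlap, T-HESC with AG-205 highest and HEC-1A with DMSO lowest, while ACSL1 is high in HEC-1A with AG-205 alone.

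The order of the 4 groups differed from gene to gene. LPIN1 and PCYT2 shared an order, T-HESC with AG-205 above HEC-1A with AG-205, then T-HESC with DMSO, then HEC-1A with DMSO, and no neighbouring groups overlapped. CHKA had a different order, also without overlap: HEC-1A with AG-205, HEC-1A with DMSO, T-HESC with AG-205 and T-HESC with DMSO. For ETNK1 each group overlapped its neighbour in the order. ACSL1 in HEC-1A with AG-205 lay above the other 3 groups, which overlapped in turn.

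With the vehicle, 4 of the 10 genes differed between the lines past both thresholds in edgeR's quasi-likelihood test, where 44.3% of all 16132 genes did. ACSL4, LPIN1 and LPIN2 were higher in T-HESC and CHKA was lower. By adjusted p alone 8 of 10 differed, beside 58.9% of all genes, and the share of the 10 genes that were called was close to that of all genes. The additional genes were ACSL3, PCYT1A and PCYT2, higher in T-HESC by 0.55, 0.67 and 0.77 on the log2 scale, and DBI, which was lower.

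Per exon length, the group means of the 10 genes spanned from 1.78 CPM per kb for LPIN1 in HEC-1A with DMSO to 106 CPM per kb for DBI in HEC-1A with AG-205. Next to DBI in HEC-1A with AG-205 came ACSL1 at 25.0 and PCYT2 at 19.0 CPM per kb, and the other 7 genes lay between 3.69 (LPIN2) and 8.59 (CHKA) CPM per kb. In T-HESC with AG-205 PCYT2 at 27.9 and ACSL4 at 16.3 CPM per kb followed DBI at 65.2. The lowest mean per exon length in that group was that of CHKA, at 4.57 CPM per kb.

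**Figure D4:**
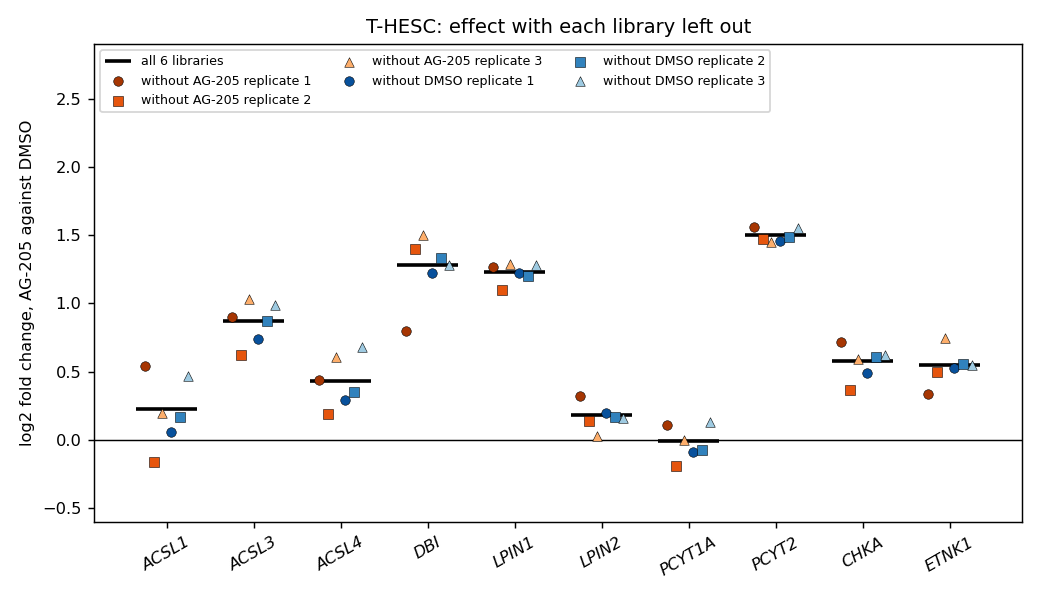
Log2 fold change of AG-205 against DMSO in T-HESC (y axis) for each of the 10 genes with all 6 libraries (black line) and with each library left out in turn (symbols). PCYT2 and LPIN1 move little, DBI falls from 1.28 to 0.80 without AG-205 replicate 1, and ACSL1 ranges from -0.16 to 0.54.

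The plot of T-HESC effects with each library left out sorts the genes by how much they lean on single libraries. AG-205 replicate 1 carried the summed stromal markers at 12815 CPM, beside 13065 CPM in AG-205 replicate 2, 20981 CPM in AG-205 replicate 3 and 17189 to 27030 CPM with DMSO, and the part of this difference in the values of the 10 genes was not tested. The single stromal markers of AG-205 replicate 1 went different ways. VIM (7753 CPM) and LUM (264 CPM) were the highest of all T-HESC libraries. COL1A1 (1375 CPM), COL1A2 (2456 CPM), COL3A1 (442 CPM), PDGFRB (127 CPM) and THY1 (133 CPM) were the lowest, and DCN (265 CPM) lay between. AG-205 replicate 1 was the treated library with the lowest ACSL1, LPIN1, LPIN2, PCYT1A, PCYT2 and CHKA and with the highest DBI and ETNK1.

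Regulatory sequence upstream of these genes was read for the letters of SREBP sites and of the CCAAT box, which binds the partner factor NF-Y. The search covered the 250 bases before each RefSeq start (GRCh38.p14), on both strands. Of all 35116 such windows 0.883% held the sterol response element TCACNCCAC, 6.34% held the E-box CACGTG and 32% held CCAAT. Windows were at hand for 9 of the 10 genes (all but CHKA), 20 windows in all. The sterol response element was found for 1 gene (ACSL1), the E-box for 2 (DBI and LPIN2) and CCAAT for 4 (ACSL1, ACSL3, DBI and PCYT2). Per window, the unit of the shares over all windows, the counts were 1, 3 and 6 of 20, and the share for CCAAT was near that of all windows. Some of these windows belong to the same gene and overlap. A match describes letters only and was not set against the measured changes by a test.

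Stretches are shown for 3 genes that rose in HEC-1A, each read 5′ to 3′ on the gene's strand with the matches in capitals. The capitals mark the sterol response element in ACSL1, read on the opposite strand, the E-box and then a CCAAT box read on the opposite strand in DBI, and the 3 CCAAT boxes read on the opposite strand in PCYT2. The ACSL1 stretch, chr4:184805774-184805803 on the minus strand, lies before an internal start of that gene, and the other 4 of its 5 windows held no such match. The DBI stretch is chr2:119366835-119366923 on the plus strand, and that of PCYT2 is chr17:81911463-81911649 on the minus strand.
ACSL1: gtggagcaGTGGGGTGActttgctgctggc
DBI: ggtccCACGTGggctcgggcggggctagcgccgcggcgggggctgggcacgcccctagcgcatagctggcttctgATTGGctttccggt
PCYT2: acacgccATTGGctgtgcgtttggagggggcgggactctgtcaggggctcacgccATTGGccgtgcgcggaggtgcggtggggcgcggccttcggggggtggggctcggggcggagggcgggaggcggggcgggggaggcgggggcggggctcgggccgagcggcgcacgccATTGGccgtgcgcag

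The PCYT2 stretch lies at the start of a gene that rose in HEC-1A and lay apart in T-HESC. LPIN1, which rose 4.48-fold in HEC-1A, had none of the 3 motifs in its 3 windows, and ACSL4, PCYT1A and ETNK1 had none either. By GENCODE 44 on GRCh38, ACSL1 (ENSG00000151726) spans 184755595 to 184826818 on the minus strand of chromosome 4, LPIN1 (ENSG00000134324) spans 11677595 to 11827409 on the plus strand of chromosome 2, and PCYT2 (ENSG00000185813) spans 81900958 to 81911432 on the minus strand of chromosome 17. DBI (ENSG00000155368) is on the plus strand of chromosome 2 from 119366924 to 119372550. DBI has 2 pseudogenes named after it and ACSL3 has 1, so their counts depend on how reads with several matches were handled. Other genes on the same strand overlap 4.03% of the exon length of PCYT1A and 0.782% of that of ACSL4. ACSL3 (ENSG00000123983) spans 222860942 to 222944639 on the plus strand of chromosome 2, ACSL4 (ENSG00000068366) spans 109624244 to 109733403 on the minus strand of chromosome X, and LPIN2 (ENSG00000101577) spans 2885296 to 3013144 on the minus strand of chromosome 18. PCYT1A (ENSG00000161217) spans 196214222 to 196287957 on the minus strand of chromosome 3, CHKA (ENSG00000110721) spans 68052859 to 68121444 on the minus strand of chromosome 11, and ETNK1 (ENSG00000139163) spans 22625075 to 22690665 on the plus strand of chromosome 12.

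The rest of the pathway was read from a list of 68 other genes grouped by function. In HEC-1A 55 of them were tested, and 4 were higher and 2 lower by adjusted p alone (edgeR's quasi-likelihood test), with a median log2 fold change of 0.07. These shares are near the 7.35% and 4.28% of all genes. Past the fold limit as well were ACSS2 and LPCAT1, 2 of 55, beside 2.58% of all genes called higher. In T-HESC 59 were tested and 0 passed, with a median of 0.08. At an unadjusted p under 0.05, 6 were higher and 1 lower, where 3.58% of all genes were higher and the share lower is not given here.

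**Figure D5:**
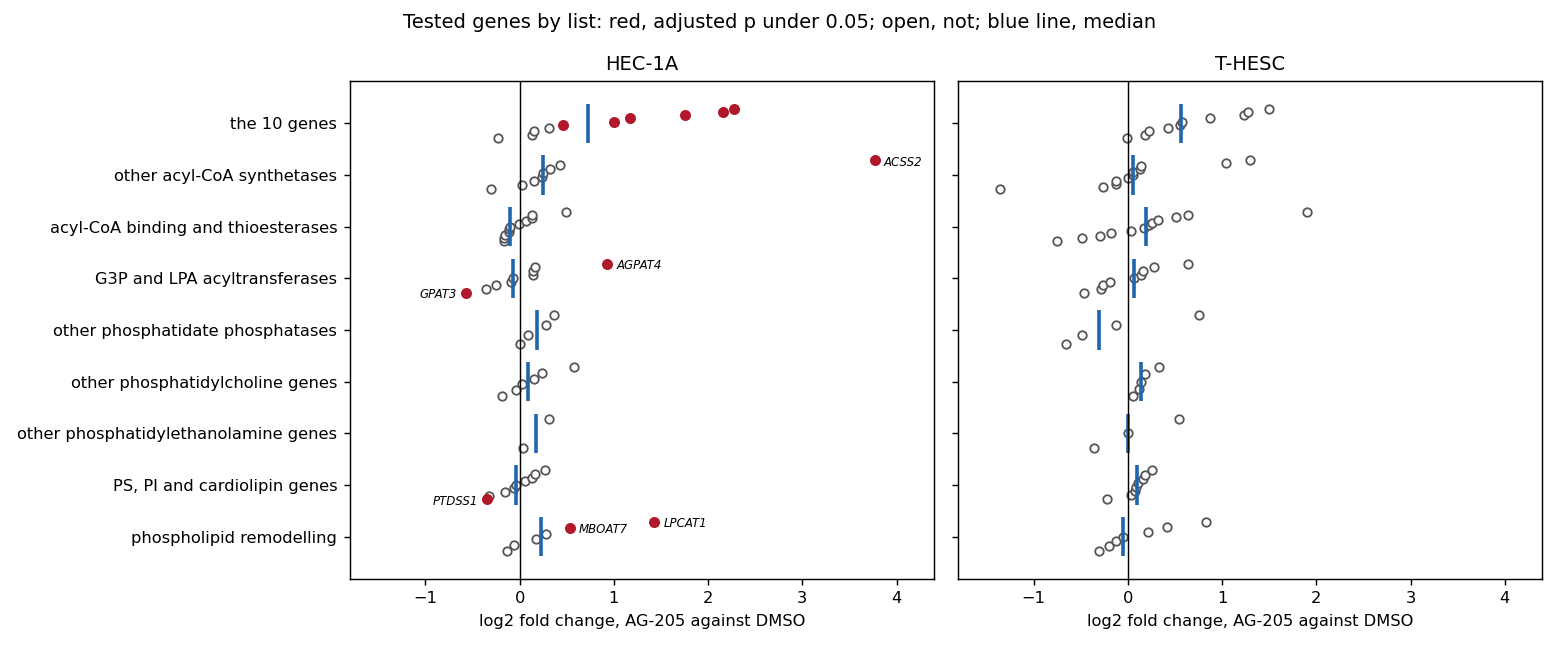
Log2 fold change of AG-205 against DMSO (x axis) for the tested genes of each functional list (rows) in HEC-1A (left) and T-HESC (right). Red points have an adjusted p under 0.05 and blue lines are list medians; the 10 genes have medians of 0.73 and 0.56, and ACSS2 is the point at 3.77 in HEC-1A.

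ACSS2 encodes the cytosolic synthetase that activates acetate rather than a long-chain fatty acid. In HEC-1A ACSS2 was at 216, 238 and 186 CPM with AG-205 and at 16.9, 17.2 and 13.9 CPM with DMSO. It rose by 3.77 on the log2 scale (SE 0.126, adjusted p 3.24e-09 in edgeR's quasi-likelihood test). ACSS2 in T-HESC was at 41.4, 133 and 112 CPM with AG-205 and at 37.6, 36.2 and 39.9 CPM with DMSO. Treated replicate 1 stood next to the vehicle libraries and the other treated libraries far above, and the estimate was 1.30 on the log2 scale (SE 0.378, adjusted p 0.522). Without that library it was 1.65 (SE 0.169) and passed, with an adjusted p of 0.00907. The ACSS2 effect differed between the lines by -2.45 (SE 0.435) with an adjusted p of 0.0543, and by -2.10 (SE 0.204) with an adjusted p of 6.30e-04 without that library.

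LPCAT1, which encodes an acyltransferase that remodels phosphatidylcholine, was at 150.0, 188 and 116 CPM with AG-205 and at 54.7, 62.0 and 56.0 CPM with DMSO in HEC-1A. It rose by 1.43 on the log2 scale (SE 0.145, adjusted p 4.44e-05 in edgeR's quasi-likelihood test). LPCAT1 in T-HESC was at 86.9, 186 and 139 CPM with AG-205 and at 65.7, 73.3 and 89.5 CPM with DMSO, groups that overlapped at treated replicate 1, and the estimate was 0.83 on the log2 scale (SE 0.288, adjusted p 0.694), or 1.05 (SE 0.210, adjusted p 0.111) without that library.

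Under the fold limit in HEC-1A, AGPAT4 (0.93, adjusted p 0.00972) and MBOAT7 (0.53, adjusted p 0.00255) were higher, and GPAT3 (-0.57, adjusted p 0.00877) and PTDSS1 (-0.35, adjusted p 0.0164) were lower in edgeR's quasi-likelihood test. These 4 genes were named after their values were seen. None of the other phosphatidylcholine genes tested (6), the other phosphatidylethanolamine genes (2), the other phosphatidate phosphatases (4) or the genes of acyl-CoA binding and thioesterases (11) passed in HEC-1A. The medians of these 4 lists were 0.08, 0.18, 0.18 and -0.10 on the log2 scale in that order.

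The genes whose pattern lay nearest to that of ACSL1 were sought over the 12 libraries and 16132 genes, by the root mean square difference of log2 CPM after centring each gene on its mean. The median gene was at a distance of 1.20. The 5 nearest lay between 0.463 and 0.481: ENSG00000278112, which had too few counts to be tested in either line alone, SLC16A13, TRIM2, ATP6V1FNB and ELOVL6. ELOVL6, which encodes an enzyme that lengthens saturated fatty acids, had a log2 fold change of 2.19 in HEC-1A (adjusted p 2.34e-08 in edgeR's quasi-likelihood test) and of 1.34 in T-HESC (adjusted p 0.670). SLC16A13 had 1.91 and 0.95, TRIM2 1.30 and 0.06, and ATP6V1FNB 1.58 and 0.61 in the same order. None of the 10 genes was among the 5.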

How the data were processed

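Polyadenylated RNA of 12 cultures was sequenced, 3 libraries for each of the 4 groups, and groups and replicate numbers came from the sample titles. Per the study's methods the cultures of a group were separate experiments. Per the submitters' notes, reads were trimmed (Trimmomatic 0.38), mapped to GRCh38 (HISAT2 2.1.0) and counted per gene (featureCounts, Subread 2.0.0), and the authors deposited raw counts without normalization. The table holds no comparison columns.

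The counts were analysed with edgeR 4.0.16 in R 4.3.3: filterByExpr, TMM scaling and the quasi-likelihood test, with p adjusted by Benjamini-Hochberg across every gene tested. Each line was fitted alone for AG-205 against DMSO. All 12 libraries were fitted together, with a shared estimate of the spread, for the difference of the effects and the lines with the vehicle. Calls needed an adjusted p below 0.05 together with a log2 fold change beyond 1 in either direction. The SE came from the quasi-likelihood F value, and the 95% interval from the t distribution. With 3 libraries against 3 an exact permutation test cannot go below 0.1. Intervals cover the spread between these libraries. Chi-square values between 2 libraries of the same group were 1.79 to 207 for each degree of freedom, so each library counted as its own.

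CPM per kb used the merged length of all exons of a gene in GENCODE 44, while the counting used another Ensembl release. Positions, overlaps and pseudogenes are from the same annotation, and promoter windows from RefSeq. The 10 genes and the pathway lists were chosen with earlier results of these data known. Named beside the 10 genes were list members called in either line and the 5 genes nearest to ACSL1 in pattern, and 4 others as stated. Likewise named after their values were seen were LPIN3, single epithelial markers and the single stromal markers of T-HESC AG-205 replicate 1. Alternatives were DESeq2 1.42.0, RLE and upper-quartile scaling, no filter, a mean of at least 1 CPM, the replicate number as a block, no fold limit, library quality weights in limma 3.58.1, 1 fit of all 12 libraries, and leaving out each library. After the data were seen, T-HESC AG-205 replicate 1 was also left out for ACSS2, LPCAT1 and the ratios. The procedure was also run on simulated counts. These gave each gene a single spread and held no outlying library, so they do not cover the case of T-HESC AG-205 replicate 1. Plots used matplotlib 3.10.9 (Python 3.11.15).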

Additional observations from a re-analysis of the deposited data

How the results depend on the processing

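The number of the 10 genes called in HEC-1A (5) was 6 with no fold limit, 4 with DESeq2, RLE size factors or a mean of at least 1 CPM, and 3 in a fit of all 12 libraries, where ACSL4 and DBI lost their calls, and 4 to 5 when single libraries were left out. In T-HESC (0) it was 2 with DESeq2, 3 with no filter on low counts, 3 with library quality weights and 3 in a fit of all 12 libraries, and 0 to 2 when single libraries were left out. For the difference of the effects (0) it was 1, ACSL1, with DESeq2, with no filter and with library quality weights, and 0 to 1 when single libraries were left out. For the lines with the vehicle (4) it was 8 with no fold limit, 3 with upper-quartile scaling, which moved the median of all genes to -0.18, and 4 whichever single library was left out. The shares of all genes called under these settings are not given here, and the causes of these changes were not tested.

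With the replicate number as a block the counts were 5 in HEC-1A, 0 in T-HESC, 0 for the difference and 4 for the lines with the vehicle, so no count changed, and 363, 9, 0 and 7073 of all genes were called. For libraries with the same number, the correlations of their deviations were -0.08, 0.23 and 0.00 in HEC-1A and 0.22, -0.53 and -0.04 in T-HESC. With 3 libraries per group, whose deviations sum to 0, these values cannot show whether the cultures were paired. Of the treated libraries only HEC-1A AG-205 replicate 2 correlated best with the vehicle library of its own number. In T-HESC the highest values were 0.69, for AG-205 replicate 2 with DMSO replicate 3, and 0.44, for AG-205 replicate 1 with DMSO replicate 2. A block by replicate number does not cover such pairs.

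Of 700 values of single genes under other settings, 647 kept their direction and side of the thresholds, 22 gained a call, 9 lost one and 22 changed sign. Those that changed sign were small values. PCYT1A in T-HESC was 0.25 with quality weights and 0.00 with all 12 libraries together, and -0.19 to 0.13 with single libraries left out. ACSL1 in T-HESC was -0.16 to 0.54 with single libraries left out. The difference for DBI was -0.15 with quality weights and -0.34 to 0.35 with libraries left out, and that for PCYT1A was 0.16 and -0.30 to 0.03. For the lines with the vehicle, ETNK1 was -0.01 with DESeq2 and with RLE size factors, -0.16 with upper-quartile scaling, -0.00 with no filter, -0.02 with a mean of at least 1 CPM and with quality weights, and -0.05 to 0.05 with libraries left out, where ACSL1 was -0.36 to 0.06.

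In T-HESC the spread between libraries limits what can be shown: a typical gene had an SE (median) of 0.33 on the log2 scale, beside 0.13 in HEC-1A.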
